A study of Homo sapiens with 80 samples.

Results

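Jurkat T cells kept at 9 g for 60 min were compared directly with Jurkat T cells kept at 9 g for 9 min, gene by gene, by RNA-seq after depletion of ribosomal RNA. The members were taken by their group label: the 6 libraries of hypg60, numbered 43 to 48, and the 6 libraries of hypg9, numbered 37 to 42, which are 12 of the 80 libraries of the series. The comparison asks which transcripts differ late in hypergravity from early in hypergravity. It uses no 60 min control, and tests that use that control are given beside it and named as such.

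Jurkat is an established line of human leukemic T cells. The cells sat in serological pipettes, were spun on a pipette centrifuge and were lysed directly afterwards. Cells of hypg60 spent 60 min at 9 g, and cells of hypg9 spent 9 min at 9 g at the end of 15 min in the pipette. Time at 9 g and time in the pipette thus differ together and cannot be told apart in the direct comparison. At 1 g, cells of Ctrl spent 15 min and cells of Ctrl60 spent 60 min in the pipette (6 libraries each, numbers 1 to 6 and 7 to 12). The library names of Ctrl60 mention HEPES, a buffer, and no other library name does. Shorter stays at 9 g, of 20 s (hypg20s), 75 s (hypg75s), 5 min (hypg5) and 7 min (hypg7), have 6 libraries each, and all 8 groups lie within the library numbers 1 to 48. The labels do not say whether the libraries of a group come from separate cultures, so the p-values measure the spread between these libraries only.

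Heat shock genes encode chaperones, proteins that bind unfolded proteins and help them refold. Their transcription is switched on by HSF1, a factor that chaperones hold inactive in unstressed cells and that binds DNA as a trimer at repeats of the letters GAA. In heat-shocked cells chaperone transcripts accumulate over minutes to hours. Immediate early genes such as EGR1 and FOS respond to a stimulus without new protein synthesis.

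The markers of the cell line were present. All 20 Jurkat T cell markers had a mean of at least 1 CPM (counts of the gene scaled to a fixed total per library) over the 12 libraries. LCK, the kinase that starts T cell receptor signalling, had 1249.3 CPM, and LAT, an adaptor downstream of it, had 7.94 CPM, the highest and lowest means of the list. Their summed level was 4662.1 to 4843.0 CPM in hypg9 and 4518.9 to 4738.2 CPM in hypg60. Of 21 markers of other cell types, 3 reached 1 CPM (PECAM1, CD79A and COL1A1), with PECAM1 at 211 CPM, and 9 had no count in the 12 libraries, among them S100A8, EPCAM, HBB, NCR1, KRT5 and COL3A1. The summed level of these 21 markers was 268 to 286 CPM in hypg9 and 265 to 288 CPM in hypg60. Total counts ran from 29180525 to 40267956 in hypg9 and from 25769027 to 35705594 in hypg60 (medians 30794733 and 32023081, two-sided exact permutation test, p = 0.387).

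Library 44 of hypg60 stood apart from the other 11 libraries in composition. Its mean GC content over counts was 51.53%, against 52.45% to 53.47% in the other 5 libraries of hypg60 and 52.25% to 52.95% in hypg9. Its 10 most abundant genes took 8.19% of its counts, against 9.92% to 12.7% in the rest of hypg60. Small RNA genes took 3.95%, against 5.11% to 7.47%. MALAT1, a nuclear long noncoding RNA, had 1507.6 CPM in library 44 and 319 to 526 CPM in the other 5. Its log2 difference from the rest of its group followed the GC content of the genes, with a Spearman rho of -0.69 across genes, which are not independent replicates. The other 11 libraries had -0.62 (library 39) to 0.56 (libraries 42 and 48), so this relation alone does not set it apart. Depth did not set it apart, with 32318298 counts. Counts of called genes are therefore given with and without this library.

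A gene was called when its Benjamini-Hochberg adjusted p from edgeR's quasi-likelihood F test was under 0.05 over all genes tested. Of 16434 genes tested, 833 were called (5.07%), 676 of them higher in hypg60 (4.11%) and 157 lower (0.955%). The changes were mostly small. The median log2 fold change was 0.56 among genes called higher, a 1.48-fold difference, and -0.38 among genes called lower, a 1.31-fold difference. An absolute log2 fold change above 1 was reached by 115 called genes (0.7%), 107 higher (0.651%) and 8 lower (0.0487%). With a filter on a mean of at least 50 counts these numbers were 25, 25 and 0. Without library 44 they were 165, 144 and 21. In 750 genes tested (4.56%) the CPM of the 6 hypg60 libraries and of the 6 hypg9 libraries did not overlap, with hypg60 above in 568 (3.46%) and below in 182 (1.11%). Of the called genes, 451 higher and 86 lower genes had no such overlap.

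The number of calls rested strongly on library 44. Without it, 3867 of 16554 genes were called (23.4%), 1951 higher (11.8%) and 1916 lower (11.6%). All 676 higher and all 157 lower calls of the 12 libraries kept their call and direction without it. With an offset for the GC content of the genes, 1854 genes were called (11.3%), 1126 higher (6.85%) and 728 lower (4.43%). With this offset and without library 44, a combination chosen after the data were seen, the count was 3401 (20.5%), 1787 higher (10.8%) and 1614 lower (9.75%). Called with the same direction in all 4 of these settings were 660 of the 676 higher genes and 138 of the 157 lower genes. The plot of all genes tested shows both versions side by side.

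**Figure D1:**
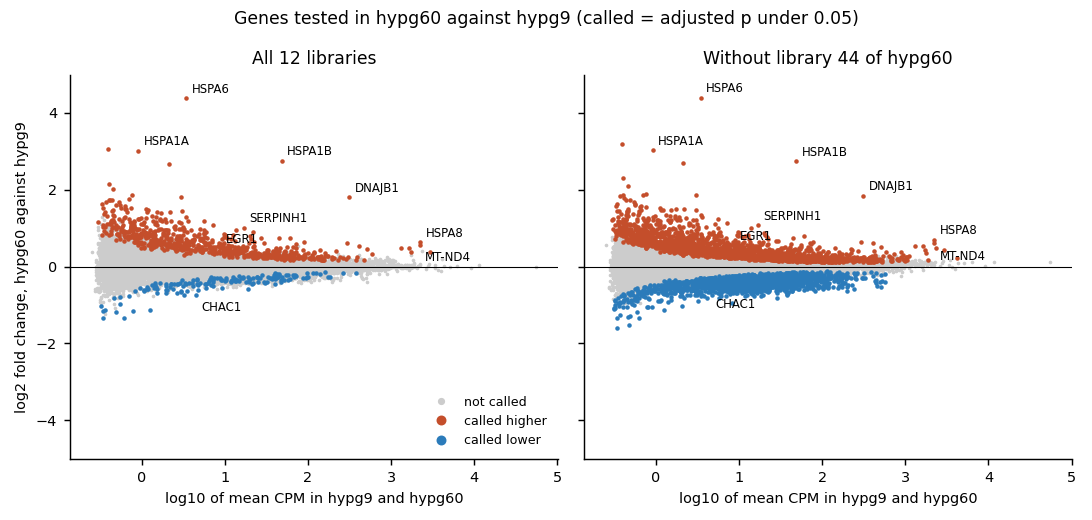
Log2 fold change of hypg60 against hypg9 (vertical axis) against the log10 of the mean CPM of the 12 libraries (horizontal axis) for the 16434 genes tested with all 12 libraries, at left from all 12 and at right from the 11 libraries without library 44. Orange points are genes called higher and blue points genes called lower. HSPA6, which passed the filter on low counts through hypg60, lies highest in the left panel at 4.38. Blue points are far more numerous at right.

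Some heat shock chaperone genes had a large late rise, while other members of their list were not called. HSPA6, HSPA1A, HSPA1B and DNAJB1 were near the level of the controls after 9 min and several-fold higher after 60 min, in all 6 libraries of hypg60. SERPINH1, CHORDC1, HSPA8 and HSPH1 rose as well, by smaller factors. HSPA1B, DNAJB1, SERPINH1 and CHORDC1 were named by a rule that required no overlap between the groups. A rise in all 6 libraries follows from it for them. In the list of 20 HSF1 target chaperones, 10 of the 19 members tested were called higher and 0 lower, beside 4.11% and 0.955% of all genes tested, with a median log2 fold change of 0.20 beside -0.01. HSPA1A, 1 of the 10, passed the filter on low counts only through its level in hypg60, and 9 of the 18 others were called. Without library 44 it was 11 higher and 1 lower, beside 11.8% and 11.6% of all genes, with a median of 0.26. The plot of heat shock genes by library shows the levels behind these calls.

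**Figure D2:**
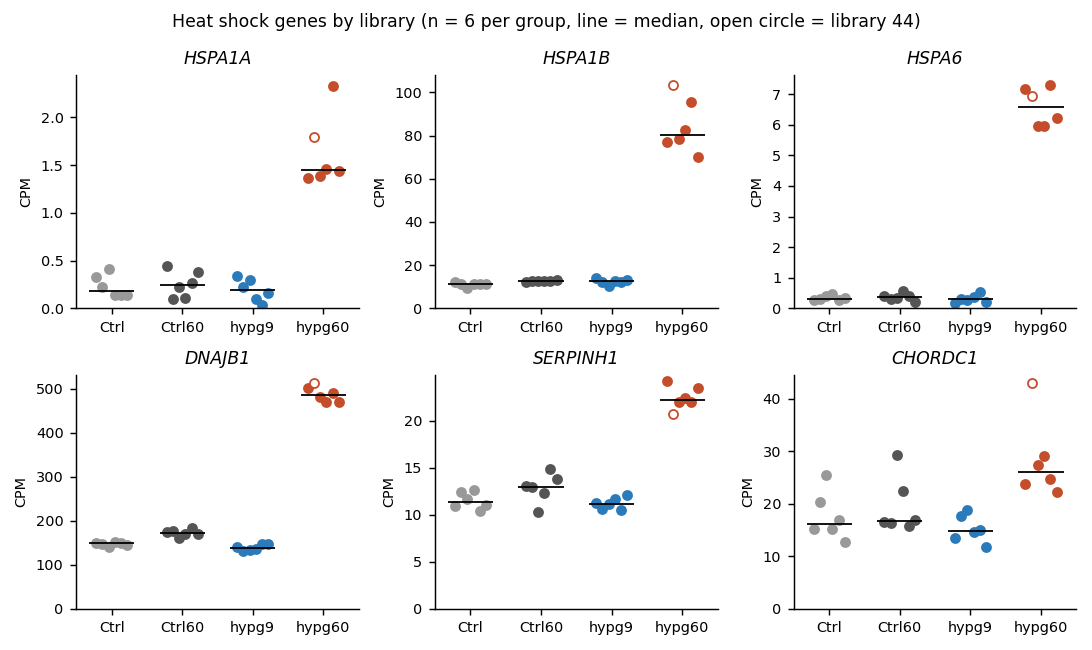
CPM (vertical axes, from 0) of 6 heat shock genes in each library of Ctrl, Ctrl60, hypg9 and hypg60, 6 libraries a group, with a line at the median. The open circle is library 44. In each panel all 6 hypg60 libraries lie above all 6 hypg9 libraries, for DNAJB1 at 469 to 512 CPM against 132 to 147 CPM.

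HSPA1B (ENSG00000204388, chromosome 6), an inducible HSP70 chaperone, had 10.4 CPM in the lowest library of hypg9, 12.5 at the median and 14.2 in the highest. In hypg60 the lowest library had 70.0 CPM, the median was 80.4 and the highest had 104 CPM. The groups were far apart, and library 44 was the highest of hypg60. The log2 fold change was 2.76 (SE 0.09, adjusted p = 8.8e-11, higher in 6 of 6 libraries), a 6.76-fold difference, and 2.74 without library 44. HSPA1A (ENSG00000204389, chromosome 6) is a near-identical copy of HSPA1B, so the split of reads between the pair is uncertain. Its level was 0.033, 0.192 and 0.341 CPM (lowest, median and highest) in hypg9 and 1.36, 1.45 and 2.33 CPM in hypg60. All hypg60 libraries lay above all hypg9 libraries, at counts low enough that the fold is imprecise, and the gene passed the filter on low counts only through hypg60. The log2 fold change was 3.02 (SE 0.28, adjusted p = 2.2e-05, higher in 6 of 6 libraries), 3.03 without library 44 and 3.01 (adjusted p = 3.9e-07) with no filter.

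HSPA6 (ENSG00000173110, chromosome 1) encodes a strictly inducible HSP70 chaperone, and it was singled out after its values were seen. It had 0.171, 0.299 and 0.528 CPM (lowest, median and highest) in hypg9 and 5.97, 6.57 and 7.28 CPM in hypg60. The transcript was close to absent in hypg9 and clearly measured in every library of hypg60. In this comparison it too passed the filter through hypg60. Its log2 fold change was 4.38 (SE 0.17, adjusted p = 2.8e-10, higher in 6 of 6 libraries), 4.40 without library 44 and 4.37 with no filter. The value of 4.38 was the highest of the 16434 genes tested. HSPA6 entered that set through hypg60, so the rank describes the filtered set only.

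DNAJB1 (ENSG00000132002, chromosome 19) encodes the HSP40 partner that delivers unfolded proteins to HSP70. Its lowest, median and highest libraries had 132, 138 and 147 CPM in hypg9 and 469, 485 and 512 CPM in hypg60. The spread within each group was small against the gap between them. The log2 fold change was 1.81 (SE 0.05, adjusted p = 7.8e-12, higher in 6 of 6 libraries), a 3.51-fold difference, and 1.84 without library 44. SERPINH1 (ENSG00000149257, chromosome 11), the collagen chaperone of the endoplasmic reticulum, had 10.5, 11.2 and 12.1 CPM in hypg9 and 20.7, 22.2 and 24.2 CPM in hypg60. Again no library of hypg60 reached down to hypg9. The log2 fold change was 1.01 (SE 0.08, adjusted p = 2.7e-06, higher in 6 of 6 libraries) and 1.07 without library 44.

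CHORDC1 (ENSG00000110172, chromosome 11), a partner of HSP90, had 11.7, 14.8 and 18.8 CPM in hypg9 and 22.2, 26.1 and 43.0 CPM in hypg60. Library 44 alone gave the value of 43.0 CPM, and the other 5 libraries of hypg60 reached 29.2 CPM, still above hypg9. The log2 fold change was 0.89 (SE 0.13, adjusted p = 0.00095, higher in 6 of 6 libraries) and 0.78 without library 44. HSPA8, the constitutive HSP70, had 1684.3, 1737.5 and 1837.5 CPM in hypg9 and 2541.8, 2698.1 and 2960.5 CPM in hypg60. Its log2 fold change was 0.64 (SE 0.07, adjusted p = 8.6e-05, higher in 6 of 6 libraries) and 0.70 without library 44. HSPH1, the HSP110 nucleotide exchange factor of HSP70, ranged from 57.7 to 84.4 CPM in hypg9 and from 86.3 to 180 CPM in hypg60. Its log2 fold change was 0.64 (SE 0.14, adjusted p = 0.013, higher in 6 of 6 libraries) and 0.50 without library 44. These members outside the naming rule, and those that follow, were named after their values were seen.

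The remaining calls in the list were small. BAG3, a cochaperone that links HSP70 to autophagy, had a log2 fold change of 0.33 (adjusted p = 0.0021, no overlap between the groups). HSPB1, a small heat shock protein, had 0.28 (adjusted p = 0.034, no overlap). AHSA1, which stimulates the ATPase of HSP90, had 0.19 (adjusted p = 0.027, higher than the hypg9 median in 5 of 6 libraries). The HSP90 genes themselves were not called: HSP90AA1 had a log2 fold change of 0.13 (adjusted p = 0.74), with the sign turned to -0.03 without library 44, and HSP90AB1 had 0.03 (adjusted p = 0.81). HSP90AA1 ranged from 467 to 1258.8 CPM in hypg60, around the 538 to 822 CPM of hypg9. The mitochondrial chaperonin genes HSPD1 and HSPE1 were not called either, with -0.04 (adjusted p = 0.9) and 0.19 (adjusted p = 0.21). The heat shock factors HSF1 and HSF2 had 0.05 (adjusted p = 0.83, below 0 with the GC offset) and -0.19 (adjusted p = 0.34), and HSF2 was called lower without library 44, at -0.26 (adjusted p = 0.026).

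The late timing of the HSP70 and HSP40 transcripts is seen in the group values. DNAJB1 had group medians of 149 CPM in Ctrl, 153 at 20 s, 148 at 75 s, 138 at 5 min, 135 at 7 min, 138 at 9 min and 485 at 60 min, beside 172 in Ctrl60. HSPA1B had 11.3 CPM in Ctrl, 13.6, 13.2, 11.8, 11.8 and 12.5 CPM from 20 s to 9 min, 80.4 CPM at 60 min and 12.7 CPM in Ctrl60. Neither gene was called in hypg9 against Ctrl, with log2 fold changes of -0.12 (adjusted p = 0.054) for DNAJB1 and 0.13 (adjusted p = 0.32) for HSPA1B. In hypg60 against Ctrl60, which shares the hypg60 libraries with the late comparison, they were 1.46 (adjusted p = 2e-10) and 2.69 (adjusted p = 2.7e-11), with no overlap between any hypg60 and Ctrl60 library.

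HSPA8, HSPH1 and AHSA1 had a dip before the late rise. HSPA8 fell from a median of 1921.7 CPM in Ctrl to 1737.5 CPM in hypg9 (log2 fold change -0.15, adjusted p = 0.039). HSPH1 fell from 83.3 to 70.2 CPM (-0.33, adjusted p = 0.014), and AHSA1 from 159 to 143 CPM (-0.19, adjusted p = 0.0012). After 60 min HSPA8 was above Ctrl60 (0.34, adjusted p = 0.0029). For HSPH1 (0.28, adjusted p = 0.13) and AHSA1 (-0.05, adjusted p = 0.51) a difference from Ctrl60 was not detected. Of the 18 chaperones of the list tested at 7 min, 8 were called lower and 0 higher than Ctrl, where 6.19% of genes were called lower and 6.64% higher (12.8% in all). The comparison of 9 min with Ctrl called 19.6% of genes, and that of hypg60 with Ctrl60 called 30.1%.

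**Figure D3:**
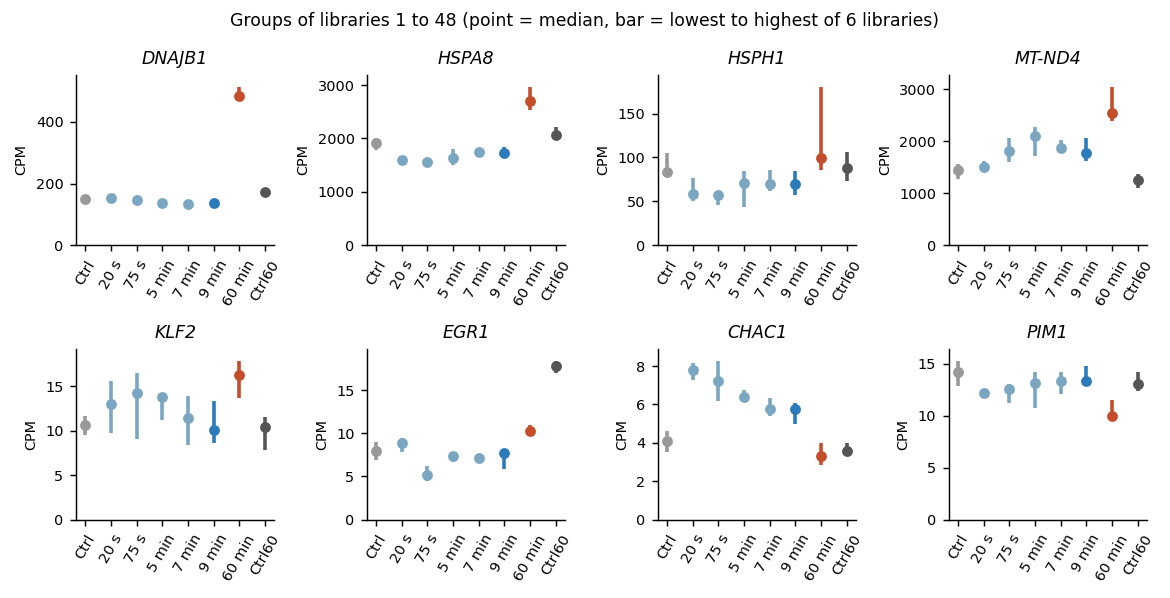
CPM (vertical axes, from 0) of 8 genes in the 8 groups of libraries 1 to 48, in the order Ctrl, 20 s to 60 min at 9 g, and Ctrl60. Points are medians and bars run from the lowest to the highest of 6 libraries. DNAJB1 has medians of 135 to 153 CPM up to 9 min and reaches 485 CPM at 60 min, whereas CHAC1 is highest at 20 s and EGR1 is highest in Ctrl60.

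The promoters of the late chaperones are shown because these genes rose together and share a known regulator. The 120 bases before the start were read from RefSeq on GRCh38.p14, 5′ to 3′ on the strand of the gene, and where several starts are listed the start with the most matches was taken. Capitals mark matches to GAANNTTC or TTCNNGAA, the 8 letter forms of the heat shock element, which each read the same on both strands, and overlapping matches run together. HSPA1B is at chr6:31827618-31827737 (plus strand), HSPA6 at chr1:161524420-161524539 (plus), DNAJB1 at chr19:14518398-14518517 (minus), SERPINH1 at chr11:75562133-75562252 (plus), CHORDC1 at chr11:90223050-90223169 (minus) and HSPA8 at chr11:123062137-123062256 (minus).
HSPA1B: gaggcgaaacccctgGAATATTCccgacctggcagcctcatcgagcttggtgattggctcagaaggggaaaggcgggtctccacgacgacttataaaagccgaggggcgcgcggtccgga
HSPA6: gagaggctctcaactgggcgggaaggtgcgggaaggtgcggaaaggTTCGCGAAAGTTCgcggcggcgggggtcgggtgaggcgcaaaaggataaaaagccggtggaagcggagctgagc
DNAJB1: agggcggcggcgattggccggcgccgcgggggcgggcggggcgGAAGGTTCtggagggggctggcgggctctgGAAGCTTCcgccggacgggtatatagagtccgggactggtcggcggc
SERPINH1: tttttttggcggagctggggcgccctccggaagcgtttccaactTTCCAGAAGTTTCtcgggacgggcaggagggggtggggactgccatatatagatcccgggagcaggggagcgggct
CHORDC1: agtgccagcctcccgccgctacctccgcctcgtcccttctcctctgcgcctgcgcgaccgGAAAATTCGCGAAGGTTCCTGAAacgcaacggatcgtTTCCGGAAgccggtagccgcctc
HSPA8: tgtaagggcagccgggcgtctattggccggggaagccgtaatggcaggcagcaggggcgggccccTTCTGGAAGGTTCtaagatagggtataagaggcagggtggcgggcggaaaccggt
HSPA1B held 1 match, starting 105 bases before the start of the gene, and DNAJB1 held 2, at 77 and 47 bases. In HSPA6, SERPINH1 and HSPA8 a pair of matches that share 3 letters formed a repeat of 13 letters, at 74, 76 and 55 bases. CHORDC1 held 5 matches, 4 of them in a single run from 60 bases before the start. A match is a description of letters and not a site of binding.

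The 8 letter forms were common in promoters at large, and the 13 letter forms were rare. Of 35116 promoters of 300 bases (250 before and 50 after the start), 13.5% held an 8 letter form and 0.49% a 13 letter form (both 8 letter forms sharing 3 letters, in either order). Among the tested genes with a symbol and a promoter, 13.3% of 10845 held an 8 letter form and 0.461% a 13 letter form. Of 376 genes called higher, 67 (17.8%) and 7 (1.86%) did, and of 110 genes called lower, 11 (10.0%) and 0 did. In the chaperone list the letters were counted in called and uncalled members, and a difference between these was not tested. An 8 letter form was found in 7 of the 10 called higher and in 6 of 8 not called, and a 13 letter form in 3 of 10 and 4 of 8.

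Outside the chaperones, the naming rule took called genes that averaged 10.0 CPM or more in hypg9 or hypg60, with no overlap between the groups and the largest changes. On the higher side these were UBAP1L, TMEM79, ZFHX2, BMP4, SLC23A1 and GSDMB, with log2 fold changes of 0.75 to 0.96. That each was higher in 6 of 6 libraries follows from this rule. BMP4, a secreted ligand of the TGF-beta family, had 7.88, 9.47 and 9.71 CPM (lowest, median and highest) in hypg9 and 14.7, 15.9 and 18.1 CPM in hypg60. Its log2 fold change was 0.81 (SE 0.08, adjusted p = 3.4e-05), and 0.83 without library 44. SLC23A1, a sodium-coupled transporter of vitamin C, had 12.2, 13.9 and 17.2 CPM in hypg9 and 21.7, 24.5 and 30.8 CPM in hypg60 (log2 fold change 0.80, SE 0.12, adjusted p = 0.00099). GSDMB, a gasdermin that can form membrane pores, rose from a median of 8.12 to 13.7 CPM (0.75, adjusted p = 0.00013). UBAP1L, TMEM79 and ZFHX2 rose from medians of 9.55, 6.88 and 7.27 CPM to 17.6, 12.7 and 12.7 CPM.

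These genes did not all share the late timing of the chaperones. UBAP1L, SLC23A1, GSDMB and BMP4 were already called higher in hypg9 against Ctrl, with log2 fold changes of 0.70, 0.63, 0.60 and 0.24 (adjusted p = 0.00035, 0.00065, 0.0012 and 0.019). TMEM79 and ZFHX2 were not, with 0.18 (adjusted p = 0.15) and 0.19 (adjusted p = 0.054), and of all genes 11.3% were called higher there. In hypg60 against Ctrl60 all 6 were called higher, at 1.62 for UBAP1L, 1.31 for SLC23A1, 1.43 for GSDMB, 1.12 for BMP4, 0.93 for TMEM79 and 0.95 for ZFHX2, where 17.1% of all genes were called higher. Each of these comparisons shares libraries with the late comparison, in which the genes were chosen for their high hypg60 values, so their values are set side by side only.

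A few more genes were singled out after their values were seen, for their small spread. DEDD2, a death effector domain protein, had 43.3, 46.2 and 49.9 CPM in hypg9 and 70.9, 76.7 and 81.8 CPM in hypg60 (log2 fold change 0.74, SE 0.06, adjusted p = 5.4e-06, higher in 6 of 6 libraries). Its levels in Ctrl and Ctrl60 were 47.8 and 51.6 CPM at the median, so at 9 min it was near the controls. JMJD6, a nuclear oxygenase, rose from 45.7 to 66.2 CPM at the median (0.52, adjusted p = 4e-05), with 48.3 CPM in Ctrl and 51.4 CPM in Ctrl60. Levels of DEDD2 and JMJD6 at shorter times are not given here. TOB2, an antiproliferative partner of mRNA deadenylases, rose from 55.5 to 77.6 CPM (0.51, adjusted p = 1.4e-05), and PPP1R10, a nuclear targeting subunit of protein phosphatase 1, from 188 to 252 CPM (0.40, adjusted p = 0.0024). Both were already called higher after 9 min (0.17, adjusted p = 0.004, and 0.23, adjusted p = 0.0014). None of the 4 genes had overlapping late and early libraries, which the choice for small spread favours.

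Genes called lower changed less. Those named here are CCDC71, ZNF628, ZNF792, CEP68, CNR2, MIEF2, PIM1, DGAT2 and ZNF784, with log2 fold changes between -0.45 and -0.38. That each was lower in 6 of 6 libraries follows from the naming rule, which required no overlap. CEP68, a centrosome linker protein, had 31.3, 33.9 and 34.7 CPM (lowest, median and highest) in hypg9 and 22.3, 25.3 and 28.3 CPM in hypg60 (log2 fold change -0.41, SE 0.06, adjusted p = 0.00071). CNR2, the cannabinoid receptor of immune cells, had 36.0, 37.0 and 37.5 CPM in hypg9 and 25.1, 27.8 and 30.6 CPM in hypg60 (-0.40, SE 0.06, adjusted p = 0.0008). PIM1, a survival kinase of lymphocytes, fell from a median of 13.3 to 10.0 CPM (-0.38, adjusted p = 0.011). DGAT2, which makes triglycerides, fell from 15.5 to 11.9 CPM (-0.38, adjusted p = 0.0088), and MIEF2, an adaptor of mitochondrial fission, from 13.4 to 10.0 CPM (-0.39, adjusted p = 0.013). The zinc finger genes ZNF628, ZNF792 and ZNF784 had -0.42, -0.41 and -0.38 (adjusted p = 0.02, 0.0042 and 0.03). These 9 genes had no call in hypg9 against Ctrl, where 8.34% of all genes were called lower. Each was called lower in hypg60 against Ctrl60, as were 13.0% of all genes (2125 genes, against 3637 without library 44). That comparison uses the hypg60 libraries for whose low values the genes were chosen.

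Some immediate early and feedback genes rose. Of 38 members tested, 8 were called higher and 1 lower, beside 4.11% and 0.955% of all genes, with a median of 0.08. Without library 44 it was 11 and 3, beside 11.8% and 11.6% of all genes, with a median of 0.10. KLF2, a quiescence factor of T cells, had 8.59, 10.1 and 13.4 CPM (lowest, median and highest) in hypg9 and 13.7, 16.3 and 17.8 CPM in hypg60. The groups came close but did not overlap (log2 fold change 0.66, SE 0.11, adjusted p = 0.0032, higher in 6 of 6 libraries). KLF2 was not high only late. Its medians were 10.6 CPM in Ctrl, 13.0 at 20 s, 14.3 at 75 s, 13.8 at 5 min and 11.4 at 7 min. The 9 min median was thus the lowest at 9 g, and the range at 75 s (9.02 to 16.5 CPM) overlapped hypg60. ZFP36, which destabilises AU-rich mRNAs, had 15.8, 18.6 and 20.5 CPM in hypg9 and 25.3, 26.7 and 28.5 CPM in hypg60 (0.54, SE 0.08, adjusted p = 0.00075, no overlap). EGR3 had 0.86 (adjusted p = 0.013, above the hypg9 median in 6 of 6 libraries) at a median of 1.94 CPM. At 1 g it had 0.768 to 1.4 CPM in Ctrl and 1.48 to 1.84 CPM in Ctrl60, without overlap but not called (0.66, adjusted p = 0.62), and the difference of differences was not called either (0.21, adjusted p = 0.82). GADD45A, a growth arrest gene, had -0.44 (adjusted p = 0.036, below the hypg9 median in 6 of 6 libraries). FOS, JUN and IER2 were not called, with 0.23 (adjusted p = 0.48), -0.07 (adjusted p = 0.72) and 0.07 (adjusted p = 0.59).

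EGR1, an immediate early transcription factor, also rose at 1 g. Its level was 5.89, 7.7 and 8.18 CPM in hypg9 and 9.82, 10.2 and 10.9 CPM in hypg60, with no overlap, and it was called higher (0.48, SE 0.10, adjusted p = 0.0084, higher in 6 of 6 libraries). At 1 g it went from 6.88 to 8.99 CPM in Ctrl to 17.0 to 18.3 CPM in Ctrl60 (log2 fold change 1.16, adjusted p = 3e-07, higher in 6 of 6 libraries). It was 1 of 2 genes called in Ctrl60 against Ctrl (0.0124% of 16109), with PHF13 (-0.28, adjusted p = 0.01) the other. The unadjusted p was under 0.05 for 578 genes there (3.59%), and DESeq2 called 11. The HEPES in the library names of Ctrl60 cannot be told apart from the time in the pipette.

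All 15 genes tested of the mitochondrial genome had a log2 fold change above 0. Of these, 7 were called higher and 0 lower, beside 4.11% and 0.955% of all genes, with a median log2 fold change of 0.38. Without library 44, when 11.8% of all genes were called higher, it was 11, with a median of 0.43. The genome encodes subunits of the respiratory chain and of ATP synthase, transcribed within the organelle. Its genes lie on the same small genome and are not independent observations. MT-ND4 had 1631.7, 1784.7 and 2064.0 CPM (lowest, median and highest) in hypg9 and 2392.2, 2548.4 and 3044.5 CPM in hypg60. All hypg60 libraries lay above all hypg9 libraries (log2 fold change 0.56, SE 0.08, adjusted p = 0.00081, higher in 6 of 6 libraries). MT-ND4L had 0.60 (adjusted p = 0.00043), MT-ND5 0.48 (adjusted p = 0.0089), MT-CYB 0.48 (adjusted p = 0.0036), MT-ATP8 0.46 (adjusted p = 0.0096), MT-ATP6 0.38 (adjusted p = 0.015) and MT-ND2 0.37 (adjusted p = 0.016), each without overlap between the groups. MT-ND1 had 0.41 (adjusted p = 0.06), called without library 44 at 0.48 (adjusted p = 0.0033). The ribosomal RNA genes MT-RNR1 and MT-RNR2, targets of the depletion, had wide errors (0.47, SE 0.80, and 0.15, SE 0.73). Their direction changed when library 43 was left out, to -0.90 and -1.72.

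The share of all counts on the mitochondrial genome was 2.12% to 2.67% in hypg60, with a median of 2.27%, and 1.71% to 2.09% in hypg9, with a median of 1.8%. The groups did not overlap (two-sided exact permutation test, p = 0.00216 and the lowest value possible with 12 libraries, and p = 0.00433 without library 44). At 1 g the later group was lower, with 1.16% to 1.38% in Ctrl60 and 1.33% to 1.6% in Ctrl (exact permutation test, p = 0.0108). MT-ND4 was already called higher against Ctrl at 7 min (log2 fold change 0.34, adjusted p = 0.002) and at 9 min (0.28, adjusted p = 0.0047). Its group medians were 1448.7 CPM in Ctrl, 2109.5 at 5 min, 1879.1 at 7 min, 1784.7 at 9 min and 2548.4 at 60 min, so the early levels were highest at 5 min and the median at 9 min was lower again. MT-ND1 (2303.9 CPM at 5 min and 1880.3 at 9 min) and MT-ATP8 (515 and 401 CPM) had the same order of medians. Some other genes of this genome did not. MT-ND3 (217 CPM at 5 min and 175 at 60 min) and MT-ND6 (199 and 180 CPM) were higher at 5 than at 60 min. MT-CO1 and MT-CO3 had their highest early medians at 7 min (4157.9 and 1858.1 CPM, against 4126.9 and 1846.4 at 5 min). More mitochondrial RNA per cell and fewer other transcripts per cell cannot be told apart in bulk libraries, nor can fewer cells of a kind and less RNA per cell.

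Stress pathways other than the heat shock response had some calls, to be read beside the 4.11% of all genes called higher and 0.955% called lower, and the 11.8% and 11.6% without library 44. Among 30 ATF4 and unfolded protein response genes tested, 3 were called higher and 1 lower, with a median of 0.00 (4 and 3 without library 44, median 0.05). CEBPB, DDIT3 and HERPUD1 had 0.40, 0.35 and 0.22 (adjusted p = 0.019, 0.025 and 0.027), each above the hypg9 median in 6 of 6 libraries. CEBPB had medians of 13.9 CPM at 75 s, 14.5 at 5 min, 10.6 at 9 min and 14.7 at 60 min. Its range of 12.2 to 15.2 CPM in hypg60 overlapped that of Ctrl60, 9.55 to 14.7 CPM. DDIT3 and HERPUD1 had their highest medians at 60 min, 3.87 and 32.7 CPM, beside 3.11 and 29.7 CPM in Ctrl60. CHAC1, a glutathione-degrading enzyme and ATF4 target, fell. It had 4.99, 5.78 and 6.1 CPM (lowest, median and highest) in hypg9 and 2.87, 3.33 and 3.98 CPM in hypg60, with no overlap (log2 fold change -0.73, SE 0.11, adjusted p = 0.00084, lower in 6 of 6 libraries), and -0.66 without library 44. CHAC1 had its highest group median at 20 s, 7.82 CPM, against 4.1 CPM in Ctrl, and it was called higher in hypg9 against Ctrl (0.41, adjusted p = 0.0052). In hypg60 against Ctrl60 it was not called (-0.14, adjusted p = 0.33), so the late decrease ended near the control level.

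Hypoxia inducible factor targets had 2 of 30 tested called higher and 0 lower, with a median of -0.02 (5 and 3 without library 44, median 0.02). PFKFB3, which makes an activator of glycolysis, had 79.1, 80.7 and 84.3 CPM in hypg9 and 90.1, 98.2 and 101 CPM in hypg60 (0.27, SE 0.04, adjusted p = 0.0018, higher in 6 of 6 libraries). It was low early, with -0.22 against Ctrl after 9 min (adjusted p = 0.00048), and it was not called against Ctrl60 after 60 min (-0.12, adjusted p = 0.062). ANKZF1 had 0.29 (adjusted p = 0.05 after rounding, above the hypg9 median in 6 of 6 libraries). VEGFA had 0.20 (adjusted p = 0.23) and DDIT4 0.19 (adjusted p = 0.063), and DDIT4 was called without library 44 at 0.23 (adjusted p = 0.0045). Of 20 p53 targets tested 1 was called higher (POLH, a lesion bypass polymerase, 0.28, adjusted p = 0.0039, above the hypg9 median in 6 of 6 libraries) and 0 lower, with a median of -0.02, and 2 and 5 were called without library 44 (median -0.05). CDKN1A had 0.26 (adjusted p = 0.29).

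Inflammatory and lymphocyte genes are given beside the same shares, 4.11% of all genes called higher and 0.955% lower (11.8% and 11.6% without library 44). Of 17 NF-kB subunits and feedback genes, 2 were called higher and 0 lower, with a median of 0.02 (2 and 1 without library 44, median 0.07). NFKBIZ, a nuclear protein related to NFKBIA, rose from a median of 0.798 to 1.52 CPM (0.81, SE 0.17, adjusted p = 0.0097, above the hypg9 median in 6 of 6 libraries). NFKBID, its relative, had 10.5, 11.2 and 12.6 CPM in hypg9 and 14.9, 15.8 and 17.0 CPM in hypg60 (0.49, SE 0.08, adjusted p = 0.0021, no overlap). NFKBIA had 0.02 (adjusted p = 0.9, below 0 with the GC offset). Of 25 interferon stimulated genes tested, 1 was called higher (IRF9, 0.57, adjusted p = 0.017, no overlap) and 0 lower, with a median of -0.04 (2 and 5 without library 44, median -0.03). CD69, an activation marker of T cells, fell from a median of 1.82 to 1.15 CPM (-0.58, SE 0.14, adjusted p = 0.028, below the hypg9 median in 6 of 6 libraries). Its call was lost with the GC offset and without library 44 (-0.37, adjusted p = 0.051).

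The 20 Jurkat markers had log2 fold changes from -0.46 to 0.27, a median of -0.04 and 7 above 0. Among them edgeR called 0, with an unadjusted p under 0.05 for 4, and DESeq2 called 1 higher and 1 lower. Without library 44 it was 2 higher and 2 lower. Over all genes 4.11% were called higher and 0.955% lower, and 11.8% and 11.6% without library 44. CD3E had a log2 fold change of 0.04 (adjusted p = 0.82), RAG1, the recombinase of receptor genes, had the lowest value of the list and LAT the highest. Of the 4 markers of other cell types tested 0 were called (unadjusted p under 0.05 for 1, DESeq2 0, and 0 without library 44). Of 16 NOTCH and T-lineage leukemia genes tested, HES1, a NOTCH target repressor (0.27, adjusted p = 0.029, no overlap), and IGF1R, a growth factor receptor (0.24, adjusted p = 0.019, above the hypg9 median in 6 of 6 libraries), were called higher and 0 lower, with a list median of 0.05. Without library 44 the list had 4 higher and 2 lower calls and a median of 0.09. The common reference genes GAPDH and ACTB had 0.02 (adjusted p = 0.95) and 0.04 (adjusted p = 0.86), and both turned below 0 under the GC offset.

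Among splicing regulators, CLK1 rose from 9 to 60 min. CLK1, a kinase of SR splicing factors, had 18.8, 19.6 and 23.6 CPM (lowest, median and highest) in hypg9 and 24.9, 33.2 and 47.4 CPM in hypg60, without overlap (log2 fold change 0.74, SE 0.10, adjusted p = 0.00065, higher in 6 of 6 libraries). It was 0.67 without library 44 and 0.92 with the GC offset. Its group medians were 17.7 CPM in Ctrl, 20.0 at 5 min and 23.4 at 7 min, where it was called higher against Ctrl (0.28, adjusted p = 0.039), and it was not called at 9 min (0.14, adjusted p = 0.24). It was the single call, beside 4.11% of all genes higher and 0.955% lower (11.8% and 11.6% without library 44), among 17 members tested of the SR splicing factors and CLK kinases, with a list median of -0.09, and 2 higher and 4 lower were called without library 44 (median -0.10). Of 24 small nucleolar RNA host genes, SNHG20 (0.37, adjusted p = 0.0082) and SNHG7 (0.20, adjusted p = 0.036) were called higher, both without overlap, and 0 lower, with a median of 0.02 (6 and 1 without library 44, median 0.06). The abundant nuclear and small noncoding RNAs had 0 of 9 called (unadjusted p under 0.05 for 3, DESeq2 0), and 3 higher and 1 lower without library 44. MALAT1 had 0.06 (adjusted p = 0.94) with all libraries and -0.39 (adjusted p = 0.01) without library 44.

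Growth and structural genes are given beside 5.07% of all genes called. edgeR called 0 of 26 G1/S genes and 0 of 40 G2/M genes (unadjusted p under 0.05 for 6 and 8, DESeq2 0 in both lists), with medians of -0.05 and -0.06. It called 0 of 79 cytosolic ribosomal protein genes (unadjusted p under 0.05 for 5, DESeq2 0, median -0.01), 0 of 24 genes of cholesterol synthesis and uptake (unadjusted 3, DESeq2 0, median -0.04), 0 of 15 nuclear lamina and linker genes (unadjusted 1, DESeq2 0, median -0.07) and 0 of 15 SRF and MRTF cytoskeletal targets (unadjusted 0, DESeq2 0, median 0.03). Without library 44, when 11.8% of all genes were called higher and 11.6% lower, the G2/M genes had 1 higher and 13 lower calls (median -0.12), the G1/S genes 1 and 3 (median -0.02), the ribosomal protein genes 2 and 3 (median 0.03), the cholesterol genes 1 and 5 (median 0.00), the lamina genes 1 and 4 (median -0.06) and the cytoskeletal targets 2 and 1 (median 0.09). LMNB1, a lamina protein, had -0.09 (adjusted p = 0.71). Of 61 histone genes tested 1 was called, the linker histone H1-6 (-0.69, adjusted p = 0.023, below the hypg9 median in 6 of 6 libraries), with a median of 0.03, and without library 44 it was 8 higher and 1 lower (median 0.15). Of 77 mitochondrial ribosomal protein genes 1 was called, MRPS36 (-0.36, adjusted p = 0.038, below the hypg9 median in 5 of 6 libraries), with a median of -0.06, and 0 higher and 14 lower without library 44 (median -0.02). The call of MRPS36 was lost with the GC offset (-0.17, adjusted p = 0.22).

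Of 184 zinc finger genes of chromosome 19 tested, 4 were called higher and 12 lower, beside 4.11% and 0.955% of all genes, with a median of -0.09 beside -0.01. Without library 44 it was 12 and 51, beside 11.8% and 11.6% of all genes, with a median of -0.16. With the GC offset it was 12 and 16, beside 6.85% and 4.43% of all genes, with a median of -0.02. ZNF773 fell from a median of 7.89 to 5.62 CPM (-0.48, SE 0.08, adjusted p = 0.0017, no overlap) and ZNF606 from 1.43 to 0.94 CPM (-0.58, adjusted p = 0.024, below the hypg9 median in 6 of 6 libraries). ZNF345 had -0.45 (adjusted p = 0.047, below the hypg9 median in 5 of 6 libraries), and its call was lost with the GC offset (-0.32, adjusted p = 0.1). ZNF610, ZNF547 and ZNF552 rose, by 0.78, 0.56 and 0.28 (adjusted p = 0.011, 0.0038 and 0.038, no overlap). The plot of gene lists sets these members beside the chaperones.

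**Figure D4:**
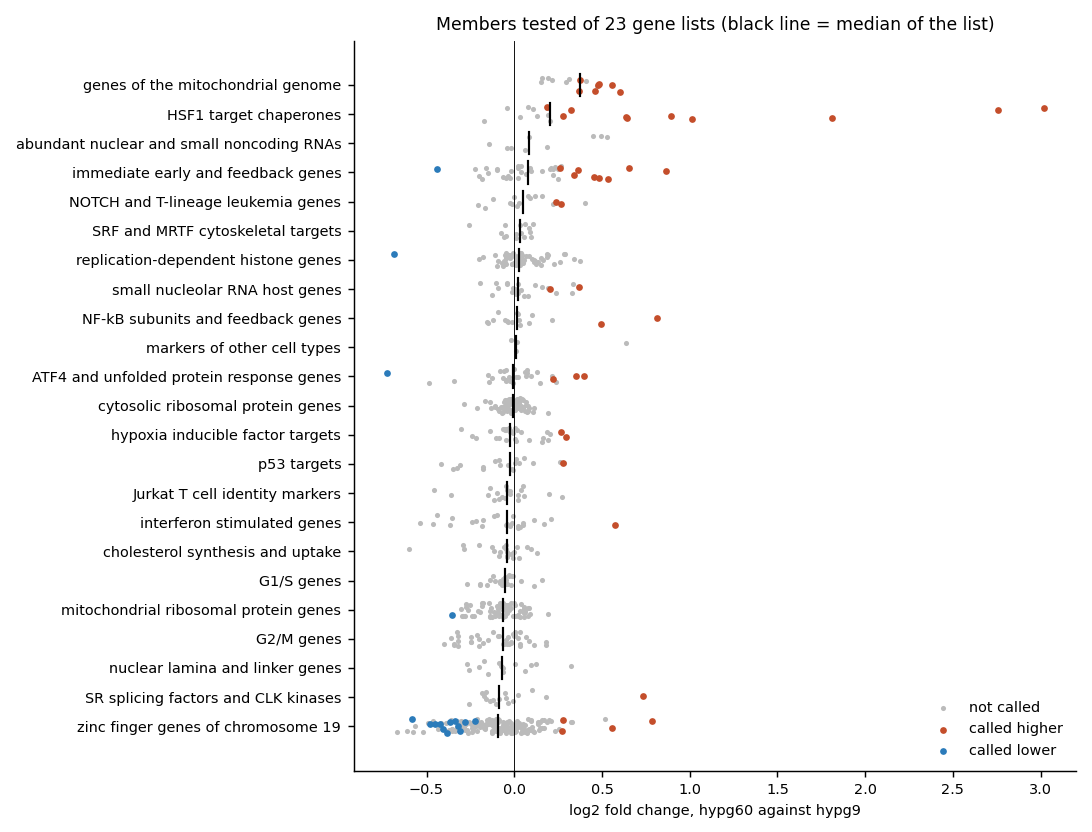
Log2 fold change of hypg60 against hypg9 (horizontal axis) for the members tested of 23 gene lists, ordered by the list median (black line). Orange points were called higher, blue points called lower and grey points not called, from all 12 libraries. The genes of the mitochondrial genome have the highest median, 0.38. The chaperone list holds the members of largest change, HSPA1A at 3.02 and HSPA1B at 2.76. HSPA1A passed the filter on low counts only through hypg60.

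The late change followed the base composition of the genes. Across the 16209 tested genes with a known GC content, Spearman's rho between the log2 fold change and GC content was 0.36, and 0.52 without library 44, with genes not independent replicates. Among 10 equal groups of genes by GC content, in the lowest group 0.555% were called higher and 1.11% lower, and in the highest group 7.03% and 0.802%. Without library 44 these were 1.53% and 41.5% in the lowest group and 18.4% and 1.1% in the highest. With the GC offset rho was -0.01. Under the offset 11 of the 19 chaperones tested were called higher and 0 lower, beside 6.85% and 4.43% of all genes, with a median of 0.23 (HSPA1B 2.73, DNAJB1 1.77 and SERPINH1 0.96). Mean GC content over counts did not differ in a detectable way between the groups (exact permutation test, p = 0.79, and p = 0.132 without library 44), and its part in the gene results was not tested further.

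**Figure D5:**
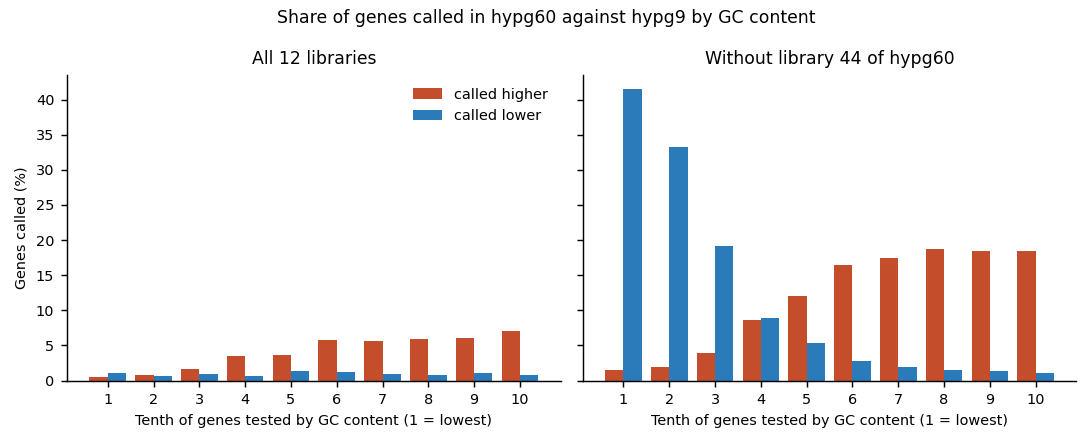
Share of genes called higher (orange) and lower (blue) in hypg60 against hypg9 (vertical axis, percent, from 0) in 10 equal groups of the genes tested by GC content (horizontal axis, 1 lowest), at left with all 12 libraries and at right without library 44. Higher calls are fewest in the lowest group in both, with 7.03% in the highest group at left and 18.8%, 18.5% and 18.4% in the top 3 groups at right, and 41.5% of genes in the lowest group are called lower at right.

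The share of higher calls varied between gene types. Over all genes 4.11% were called higher and 0.955% lower, and 11.8% and 11.6% without library 44. Of 1116 antisense genes tested, 86 were called higher (7.71%) and 9 lower (0.806%), and of 840 intergenic long noncoding RNA genes 58 (6.9%) and 7 (0.833%). Of 12251 protein-coding genes 406 were called higher (3.31%) and 125 lower (1.02%). Of 436 processed pseudogenes 11 were called higher (2.52%) and 4 lower (0.917%). Without library 44 the shares called higher were 18.0%, 16.6%, 10.3% and 9.71% in the same order, and the shares called lower 2.46%, 3.62%, 14.4% and 4.74%, so that more protein-coding genes were called lower than higher. The median level of the antisense genes was 1.23 CPM, against 22.8 CPM for protein-coding genes. Some smaller types had larger shares called higher than the antisense genes, among them miRNA genes (8 of 74, 10.8%) and processed transcripts (16 of 178, 8.99%). Small nucleolar RNA genes had 4 of 100 (4.0%), and 28 of 102 (27.5%) without library 44. No test compared these shares.

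The change at 1 g over the same interval was subtracted by a test of the difference of differences, hypg60 against hypg9 less Ctrl60 against Ctrl. Only the library names of Ctrl60 mention HEPES, and the labels do not say whether hypg60 had it. The difference of differences, and hypg60 against Ctrl60, may thus hold the buffer as well as time. Of 17078 genes, 348 were called (2.04%), 296 higher (1.73%) and 52 lower (0.304%). Without library 44 it was 863 of 17181 (5.02%), 586 higher (3.41%) and 277 lower (1.61%). This test uses the hypg60 and hypg9 libraries again and is no independent evidence. HSPA1B had 2.58 (SE 0.12, adjusted p = 3.6e-14), DNAJB1 1.59 (SE 0.06, adjusted p = 3.6e-15) and SERPINH1 0.85 (SE 0.12, adjusted p = 0.00011), so the late rise of these chaperones exceeded that of the controls. CHORDC1 was not called (0.75, adjusted p = 0.086). The MT-ND4 difference was 0.77 (SE 0.10, adjusted p = 8.9e-05), larger than the direct change because the level at 1 g was lower in Ctrl60. EGR1 turned sign, to -0.67 (SE 0.11, adjusted p = 0.0014). CHAC1 kept its decrease (-0.54, SE 0.13, adjusted p = 0.031), while for PFKFB3 (0.12, adjusted p = 0.3) and PIM1 (-0.27, adjusted p = 0.16) a difference from the controls was not shown.

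The late calls were set beside those of hypg7 against Ctrl, which shares no library with them. Over 16114 genes tested in both, 180 of 625 late higher genes were also higher at 7 min, 28.8% of the late genes and 16.5% of the 1091 genes higher at 7 min, against 6.77% of all these genes higher at 7 min and 3.88% higher late. Of 157 late lower genes, 22 (14.0%, and 2.22% of the 993 lower at 7 min) were lower at 7 min, against 6.16% of all. Opposite calls were fewer, with 13 late higher genes lower at 7 min (2.08%) and 5 late lower genes higher at 7 min (3.18%). Without library 44, 437 of 1857 late higher genes were higher at 7 min (23.5%, and 40.1% of those at 7 min) and 165 of 1914 late lower genes were lower (8.62%, and 16.6%), against 11.5% of all genes higher and 11.8% lower late. Opposite calls were 67 late higher genes lower at 7 min (3.61%) and 16 late lower genes higher at 7 min (0.836%), against 6.16% and 6.75% of all genes lower and higher at 7 min. NFKBID, SLC23A1, UBAP1L and MT-ND4 were among the genes called higher in both, whereas HSPA1B (0.10, adjusted p = 0.47), DNAJB1 (-0.16, adjusted p = 0.056) and SERPINH1 (-0.14, adjusted p = 0.18) were not called at 7 min.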

How the data were processed

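RNA of Jurkat cells was sequenced after depletion of ribosomal RNA with directional libraries. The authors deposited counts: read pairs assigned to genes of GRCh38 (Ensembl release 104) by featureCounts with reversely stranded counting, not normalized. The file header names featureCounts 2.0.3 and the submitters' notes 2.0.1, with Trim Galore 0.6.5 and STAR 2.7.3a. The exon length column, which the authors deposited in the unit other (bases per gene), served as an alternative offset only. Of the deposited genes 1, whose record spans 3 broken lines, was not used, leaving 60663 genes in 80 libraries. Symbols, gene types and GC content came from reference releases other than the annotation used for counting.

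The 6 libraries of hypg60 were compared with the 6 of hypg9 in edgeR 4.0.16 (R 4.3.3) with TMM factors, filterByExpr with a minimum count of 10.0, and the two-sided quasi-likelihood F test with Benjamini-Hochberg adjustment over all genes tested. SE is the absolute log2 fold change divided by the square root of F. CPM is the count of a gene scaled by the library total, without TMM. Total counts per library were 25769027 to 40267956. The difference of differences, Ctrl60 against Ctrl, hypg7 against Ctrl, hypg9 against Ctrl and hypg60 against Ctrl60 were fitted in the same way. The code was tested on simulated data.

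The genes to name were chosen by a rule: up to 10 called genes per direction with the largest change, no overlap and 10.0 CPM or more on average in hypg9 or hypg60, up to 3 called genes per direction of each of 23 lists with at least 1 CPM, and fixed reference genes, of which TXNIP was not tested. Of the genes chosen by the rule 1 is not reported here. The members, the lists and this rule were chosen with earlier results of these data known. Genes outside the rule are said to be chosen after their values were seen.

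Alternatives were library size only, RLE factors, no filter, a mean of at least 50 counts, DESeq2 1.42.0, all 8 groups in 1 model, the same with 3 surrogate variables (sva 3.50.0), lowess offsets (span 0.3, prior count 2) against GC content and exon length, and leaving out each library. Genes without a GC content received the median of the curve. Leaving out library 44 together with the GC offset, and leaving it out of the difference of differences and of hypg60 against Ctrl60, was added after the data were seen. Library measures were compared by two-sided exact permutation tests. Summaries and figures were made in Python 3.11.15 (matplotlib 3.10.9, pandas 2.3.3, scipy 1.17.1, numpy 2.4.6).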

Additional observations from a re-analysis of the deposited data

Results flagged for a closer look

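In 146 groups of libraries examined (named genes and library groups), 9 held a library far from the others of its group, and chance does so in about 1 in 20 groups. Of these, 3 were library 44 of hypg60: CHORDC1 had 43.0 CPM there against 22.2 to 29.2 in the other 5 libraries, ZNF610 had 1.83 CPM against 1.0 to 1.29, and MALAT1 had 1507.6 CPM against 319 to 526. In the rest of hypg60, ZFHX2 had 14.5 CPM in library 46 (others 12.3 to 12.9), CEBPB had 12.2 CPM in library 48 (others 14.5 to 15.2) and IER2 had 99.6 CPM in library 43 (others 93.2 to 95.5). In hypg9, library 40 had 7.88 CPM of BMP4 (others 9.16 to 9.71) and 31.3 CPM of CEP68 (others 33.5 to 34.7), and library 39 had 0.546 CPM of EGR3 (others 1.03 to 1.31).

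For 30 of the 66 genes named by the rule and tested, the change from 9 to 60 min at 9 g differed from the change between the controls at 1 g by edgeR's test of the difference of differences, which called 2.04% of all genes. Most of these genes were chosen for their call in hypg60 against hypg9 and the test uses the same libraries, so a high share was built in. Among chaperones the difference in log2 fold change was 2.58 for HSPA1B, 2.86 for HSPA1A, 1.59 for DNAJB1 and 0.85 for SERPINH1. Other genes with a positive difference were UBAP1L at 0.92, TMEM79 at 0.77, ZFHX2 at 0.77, BMP4 at 0.89, SLC23A1 at 0.70 and GSDMB at 0.85. It was also positive for KLF2 (0.77), ZFP36 (0.39), NFKBIZ (1.28), NFKBID (0.51), CLK1 (0.75), HES1 (0.34) and IGF1R (0.28). Of the mitochondrial genome, MT-ND4L had 0.80, MT-ND4 0.77, MT-ND5 0.71 and MT-ND1 0.64. The difference was negative for CCDC71 (-0.51), ZNF628 (-0.44), CEP68 (-0.43), CNR2 (-0.30), MIEF2 (-0.41), DGAT2 (-0.39), ZNF773 (-0.46), CHAC1 (-0.54) and EGR1 (-0.67).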

How the results depend on the processing

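The counts depended on the setting more than the named genes did. With all 12 libraries 833 genes were called, and the count was within 1.5 times of this with library size only (954), RLE factors (844), no filter (631), a mean of at least 50 counts (629) and an exon length offset (949). It was 1982 with all 8 groups in 1 model, 3829 with 3 surrogate variables, 1260 by DESeq2, 1854 with the GC offset and 3401 with the GC offset and without library 44. Leaving out each library gave 499 to 3867, with 3867 without library 44 and, for the other 11 libraries, 499 (library 46) to 790, with 540 without library 38 and 554 without library 39. The 676 higher calls became 1379, 1757, 1126 and 1787 with all 8 groups, surrogate variables, the GC offset and both choices, and 413 (library 46) to 1951 (library 44) on leaving out libraries. The 157 lower calls became 99 with no filter, 603 with all 8 groups, 2072 with surrogate variables, 300 by DESeq2, 728 with the GC offset and 1614 with both choices. Leaving out libraries gave 84 (library 38) to 1916 (library 44) lower calls, with 102, 89, 90, 96, 95 and 86 without libraries 37, 39, 40, 43, 45 and 46. Past a log2 fold change of 1, the 115 calls became 25 with a mean of at least 50 counts and 93 to 165 on leaving out libraries, and the 107 higher calls 25 and 88 to 144. The 8 lower calls past that limit became 13 with all 8 groups, 0 in edgeR with a mean of at least 50 counts (no gene tested was below -0.74 there), 36 with surrogate variables, 13 with both choices and 5 (library 46) to 21 (library 44) on leaving out libraries. The 348 calls of the difference of differences became 191 with no filter, 527 with all 8 groups, 786 with the GC offset and 863 without library 44. Its 296 higher calls became 170, 496 and 586 with no filter, the GC offset and without library 44, and its 52 lower calls 21 with no filter, 120 with all 8 groups, 85 by DESeq2, 290 with the GC offset and 277 without library 44. In Ctrl60 against Ctrl the 2 calls became 11 by DESeq2 (4 higher, 7 lower) and 9 with the GC offset (2 higher, 7 lower). With the GC offset the calls of hypg7 against Ctrl became 3356 (1896 lower), the lower calls of hypg9 against Ctrl 2441 and those of hypg60 against Ctrl60 3237, which were 3637 without library 44. The cause of these shifts was not tested. Direction reversed in 25 values of 12 genes that were not called. These were HSP90AA1 (-0.03), HSPA4L (-0.06) and MALAT1 (-0.39, and -0.18 with the GC offset) without library 44; GAPDH (-0.05), CD3E (-0.01), LMNB1 (0.04), ACTB (-0.02), HSPD1 (0.10) and HSF1 (-0.03) with surrogate variables; and GAPDH (-0.03), NFKBIA (-0.02, also without library 44), ACTB (-0.01) and HSF1 (-0.00) with the GC offset. Leaving out libraries in turn gave ranges that cross 0: GAPDH -0.03 (library 48; -0.00 and -0.02 without 43 and 47) to 0.11 (44), NFKBIA -0.01 (43) to 0.07 (44), ACTB -0.00 (48) to 0.12 (44), HSPD1 -0.12 (44) to 0.04 (48; 0.00 without 38), HSP90AA1 -0.03 (44) to 0.22 (48), HSPA4L -0.06 (44) to 0.27 (39), MALAT1 -0.39 (44) to 0.18 (47), MT-RNR1 -0.90 (43) to 0.75 (44) and MT-RNR2 -1.72 (43; -0.05 without 42) to 0.38 (37). Of 1469 values of called genes, 154 in 19 of 67 genes kept the direction without a call, and 44 values in 14 of 31 uncalled genes gained a call. No paired analysis was possible because no library number is shared between groups.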

Other observations

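Heat shock transcripts were also read in groups outside library numbers 1 to 48, with no test against hypg60 because library numbers and groups cannot be told apart. In the heat group, kept at 42 °C for 5 min, HSPA1B had 23.5 to 27.2 CPM and DNAJB1 184 to 193 CPM (4 libraries), against 15.4 to 17.5 and 160.0 to 168 CPM in its own control, Ctrl300g. HSPA6 had 1.35 to 1.94 CPM with heat against 0.558 to 0.907 CPM. SERPINH1 and HSPA8 were not higher with heat, with medians of 13.5 and 2237.1 CPM against 14.2 and 2269.8 CPM. After 15 min at 9 g, HSPA1B had 15.6 to 18.8 CPM and DNAJB1 177 to 189 CPM in 5 libraries. After 3 min they had 12.2 to 13.8 and 147 to 155 CPM (6 libraries), without overlap. SERPINH1 (12.9 to 15.7 against 10.3 to 11.6 CPM) and HSPA8 (1965.7 to 2328.1 against 1678.6 to 1797.3 CPM) did not overlap either. In HSPA1A and HSPA6 these groups overlapped. A difference between 15 and 3 min was not tested. Library 75 of that group was left out there because it lacks counts on several chromosomes.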
